A study of Mus musculus with 8 samples.

Results

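Gene expression was described in wild-type hematopoietic stem cells (HSCs), measured on the 2 arrays labelled Nras+/+ out of 8 in the series. The cells came from bone marrow of mice given as strain B6, and their total RNA was labelled with Cy3 and hybridised to 1-colour Agilent arrays of 60-base probes. The other 6 arrays hold HSCs with 1 mutant allele (NrasG12D/+, 3 arrays) or 2 mutant alleles (NrasG12D/G12D, 3 arrays) of the small GTPase Nras. They were used here mainly to see whether the same probes were above background again. In a few places their signals, and their correlations with G+C and between arrays, are given for scale. The labels name neither the markers used to sort the cells nor the age of the mice, and they do not say whether each array holds RNA of a separate animal. Labelling followed an undisclosed protocol of a service provider. The 2 arrays shared 1 slide and 1 scan, and technical spread cannot be told apart here from spread between animals.

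HSCs are the rare cells of the bone marrow that renew themselves and give rise to all blood lineages. In the adult mouse most of them are out of the cell cycle, rely more on glycolysis than on mitochondrial respiration and make protein at a low rate. They are recognised by surface proteins such as Ly6a (Sca-1), Kit and Slamf1 (CD150), together with low levels of lineage markers, Cd48 and Flt3.

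A gene was counted as detected on an array when Feature Extraction called its probe well above background. Where a gene had several probes, the one detected on more arrays was used, and among equals the brightest. The level is the processed signal, an intensity without a physical unit. Because different probes bind their targets with different strength, a gene's rank is a rank of probe brightness and not of transcript number. The percentile of a gene is the share of all genes with a dimmer probe on the same array.

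The probe sequences bear on what these arrays can say about HSC genes, and short stretches of those that the results turn on are therefore given first, as the files list them, from 5′ to 3′. Capitals mark runs of at least 4 G and alternating TG or CA repeats of at least 4 units. Coordinates are those of the files, which state no genome build. The first 3 belong to Mllt3, a transcription elongation cofactor that supports HSC self-renewal, and the first pair overlaps.
Mllt3 probe A_52_P619007: GGGGGGagtttcttgtccttgttgtacctt
Mllt3 probe A_51_P394484: gttgtacctttgttttgaaactagaaatct
Mllt3 probe A_52_P530665: GGGGGcGGGGGaGGGGGGtaccacacaaca
The next 3 belong to genes among the brightest on both arrays.
Dcaf12l2 probe A_51_P117457: tgcctgatTGTGTGTGTGTGTGagtgattt
Vegfb probe A_51_P458168: taactgtgACACACACACACACtcacactc
Mast4 probe A_51_P282896: tttataaACACACACACACACACAtatgcc
The last 5 belong to the other stem cell markers, and among them the Esam stretch holds a G run.
Esam probe A_51_P448325: tggacctgaggtaGGGGGttgggagtaagg
Ly6a probe A_51_P265495: tatgagttatagaagctccaaggtgggagt
Pdzk1ip1 probe A_51_P491329: tctactgaaacaagctgactccctcacctc
Prdm16 probe A_51_P514139: gcaactgcatggtatgaaagaggaaatcgg
Slamf1 probe A_52_P158959: gttttcacggcaataataatgatgaaaaga

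All 6 stem cell markers whose probes are shown above were detected on both arrays. The labels do not name these markers, which were chosen with earlier results of these data known. Kit and Procr, taken up below, are not among them and were detected on neither array. Over all 27555 genes with a value, 9552 were detected on both arrays (34.7%), 4152 on 1 array (15.1%) and 13851 on neither (50.3%). Of the 19726 genes whose probe matched a RefSeq gene, 39.99% were detected on both arrays, which is the nearer background for lists of well-known genes. Genes with more probes had more chances under the rule used: 27.3% of the genes with 1 probe and 65.5% of those with 5 or more were detected on both arrays. A gene was called bright when it was detected on both arrays and in the top 10% on each, and 1734 genes were (6.29%).

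Mllt3 had a signal of 626 on replicate 1 and 504 on replicate 2, at percentiles 97.2 and 97.8. Esam, an adhesion protein of HSCs and endothelium, stood at 387 and 285. Ly6a, the stem cell antigen Sca-1, stood at 350 and 274. These 3 markers were bright on both arrays and lay within the top 5% of genes.
Pdzk1ip1, a small membrane protein whose gene marks HSCs, reached 175 and 85.3, which also counts as bright. Prdm16, a zinc finger regulator needed for HSC maintenance, reached 54.6 and 51.6. Slamf1, the CD150 antigen, had 12.4 and 46.8, at percentiles 59.1 and 86.8, so that its place in the order differed most between the arrays. These values came from 1 of its 2 probes. The other Slamf1 probe, with 35% G+C, read 3.24 and 2.04. It was detected on neither wild-type array and on 1 of the 6 mutant arrays. After scaling each array to its 75th percentile, Slamf1 was 2.60 higher on replicate 2 on the log2 scale, whereas the other 5 markers differed by -0.35 to 0.60. All 6 markers were also detected on each of the 6 mutant arrays. Among genes whose probe has the same number of G and C bases, an order added after the values were seen, Ly6a stood at percentiles 97.3 and 98.4, Esam at 89.5 and 91.3, Pdzk1ip1 at 87.8 and 87.1 and Mllt3 at 61.1 and 61.7. In that order Ly6a alone of these 4 was in the top 10% on both arrays.

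**Figure D1:**
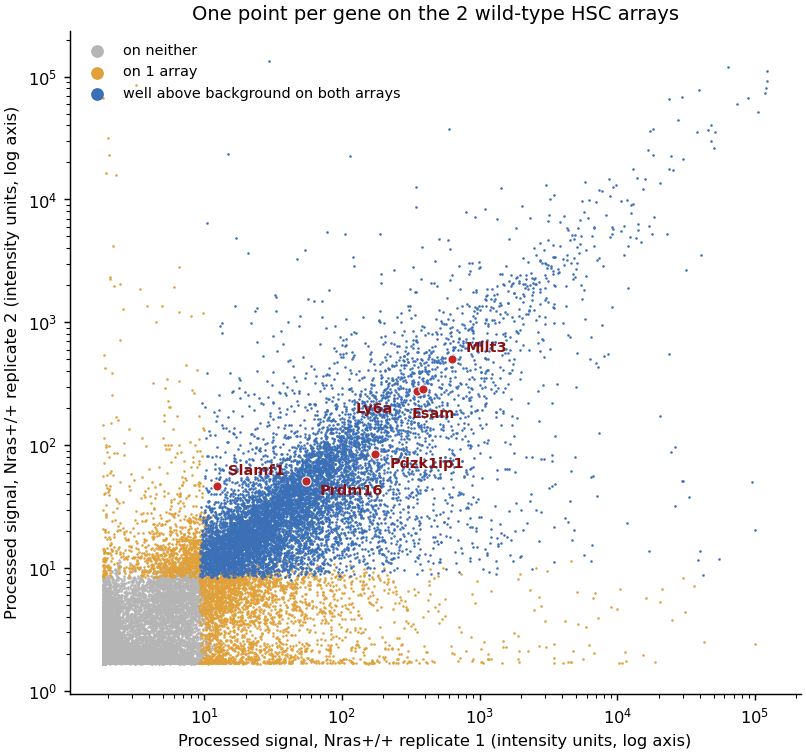
Processed signal of each gene on Nras+/+ replicate 1 (horizontal, log axis) and replicate 2 (vertical, log axis), coloured by whether its probe was well above background on both arrays, 1 array or neither; the 6 stem cell markers are in red. Mllt3, Esam and Ly6a lie high on the diagonal, Slamf1 lies above it, and scattered genes lie far from the diagonal or along either axis.

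The detected Mllt3 signal came from 2 of its 5 probes. The brightest, at chr4:87241139-87241169, has 68.3% G+C and holds 3 G runs in the stretch shown. The pair that overlaps gave the sharpest contrast. Probe A_52_P619007, at chr4:87243929-87243988 on the minus strand, begins with 6 G and read 553 and 512. Probe A_51_P394484, at chr4:87243909-87243968, shares 40 of its 60 bases with it, lacks the G run and read 2.34 and 2.24. Both probes thus lie on nearly the same stretch of the gene, yet only the one with the G run was above background. That probe also has more G+C (45% against 36.7%), and each of the 2 holds 20 bases that the other lacks. Which of these differences goes with the signal was not tested. The remaining 2 Mllt3 probes read 6.11 and 4.24 (35% G+C) and 1.92 and 1.76 (40% G+C). On the 6 mutant arrays the G-run probe read 407 to 599 and its neighbour 2.41 to 22.7.

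Detection rose with the G+C share of the probe on both arrays. Of the 1999 probes with at most 30% G+C, 6.55% were detected on both arrays, against 29.8% of those with over 40 to 45% and 86.1% of the 180 probes with over 60%. Spearman's rank correlation of signal with G+C across the 41174 probes was 0.454 on replicate 1 and 0.405 on replicate 2, and on the 6 mutant arrays it was 0.435 to 0.534. These probes are not independent replicates and no test was made. The same order was found between probes of 1 gene. In the 371 genes whose probes differed by over 20 percentage points in G+C, the G+C-richer probe was the brighter one in 83.6% on replicate 1 and 76.3% on replicate 2, with a median difference of 2.23 and 1.77 on the log2 scale. In the 2814 genes whose probes differed by at most 5 points the share was 56.8% and 55.2%.

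**Figure D2:**
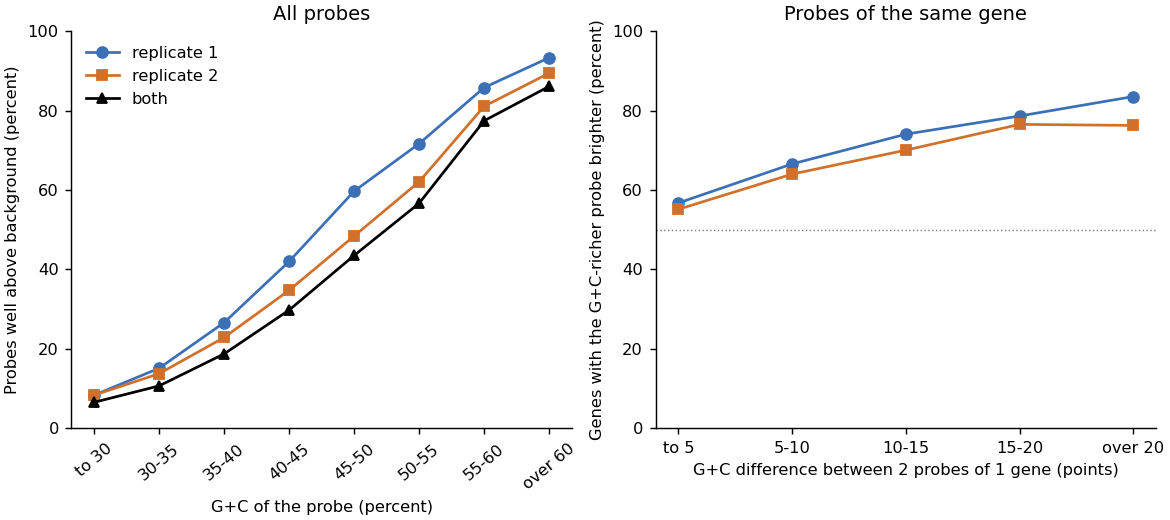
Left, share of all probes well above background (vertical, percent) by G+C of the probe (horizontal, percent), on replicate 1, replicate 2 and both. Right, share of genes in which the G+C-richer of 2 probes was brighter (vertical, percent) by the G+C difference (horizontal, percentage points), with a dotted line at 50%. Both-array detection climbs from 6.55% to 86.1%, and the right-hand share climbs from 56.8% to 83.6% on replicate 1.

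Signal also went with short motifs, which were picked after the brightest probes had been read. Each was searched in the probe as listed, so that the opposite strand of a motif counts separately, and a probe can hold several. Of the 80 probes holding GTGTGTGT, 87.5% were detected on both arrays and 75% were bright among all probes. For the 63 probes with ACACACAC, the same repeat on the opposite strand, the shares were 87.3% and 66.7%. Of the 704 probes with a run of 5 G, 70.9% were detected on both arrays and 29.1% were bright, and of the 604 probes with a run of 5 C, 48.2% and 18.2%. Over all probes 26.2% were detected on both arrays and 6.31% were bright. TATATATA, a repeat without G or C, was held by 80 probes, of which 10% were detected on both arrays. Among probes with 40 to 45% G+C, 91.7% of those with GTGTGTGT and 71.2% of those with a run of 5 G were detected on both arrays, against 28.4% of all in that range, while those with a run of 5 C reached 37.9%. At least 1 of these 4 motifs or of the motif CAGCAGCAG was held by 48 of the 100 brightest probes and by 3.50% of all probes.

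Genes with such probes headed the order of the arrays. Dcaf12l2, a gene of the X chromosome, stood highest when genes were ordered by the lower of their percentiles on the 2 arrays, with signals of 121000 and 80800 from the probe at chrX:40611087-40611146. Its other probe read 1.85 and 1.70. Vegfb, a vascular growth factor, read 118000 and 74000 from the probe at chr19:7049516-7049573, while its other probe read 53.5 and 6.54. Mast4, a kinase, read 47600 and 40100 at chr13:103973243-103973302, whereas its other 5 probes lay between 1.68 and 71.8 on the 2 arrays. In each of these genes 1 probe carried most of the signal.
The same held for Junb, an immediate early transcription factor: the probe used read 51300 and 35300, and the other 2.35 and 24.4. Rn28s1, the 28S ribosomal RNA, read 29300 and 68600, and its probe holds none of the 5 motifs. The 20 brightest genes also included Cyp2d9 (18100 and 37700), a cytochrome P450, Ugt2b34 (25200 and 17500), a glucuronosyltransferase, and Olfr821 (18100 and 23000), an olfactory receptor. All of the genes named in this paragraph except Junb and Ugt2b34, which were on 5, were detected on all 6 mutant arrays. The part of base composition and of repeats in the levels below was not tested. Over all lists, 108 of 344 members with at most 40% G+C (31.4%) and 398 of 789 with over 40% (50.4%) were detected on both arrays. The gap was wide in some lists: with at most 40% and with over 40%, 0 of 4 and 12 of 16 B cell genes, 0 of 5 and 11 of 20 cytokine receptors, and 1 of 12 and 12 of 17 genes of the Ras and MAP kinase list were detected on both arrays. In the tricarboxylic acid cycle (5 of 7 and 11 of 17) and in G2/M and mitosis (6 of 12 and 10 of 19) the shares lay closer together.

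The 2 lists of HSC genes were detected above the background share. Of 28 genes of the HSC surface, 16 were detected on both arrays (57.1%), 4 on 1 array and 8 on neither, and 4 were bright. Beside Esam, Ly6a and Pdzk1ip1, the brightest was Ifitm1, an interferon-induced membrane protein, with 132 and 99.3.
Several defining HSC antigens were at background. Kit, the stem cell factor receptor, read 2.38 and 2.38 and was detected on neither array and on 1 of the 6 mutant arrays. Procr (the EPCR antigen) read 1.92 and 1.81 and was detected on none of the 8 arrays. Adgrg1, Alcam and Cd9 were detected on neither wild-type array. Cd34, which is low on adult mouse HSCs, read 12.1 on replicate 1 and 2.76 on replicate 2 and was detected on the first alone. Cd48 and Flt3, which HSCs are known to lack and which mark multipotent progenitors, were detected on both arrays, Cd48 at 36.4 and 52.6 and Flt3 at 23.8 and 12.5.

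Among 35 HSC transcription factors, 19 were detected on both arrays (54.3%), 3 on 1 array and 13 on neither. Runx1, which establishes definitive hematopoiesis, read 422 and 219 from a probe with 55% G+C, and 2.31 and 2.21 from a probe with 41.7%. Bmi1, a Polycomb protein needed for self-renewal, read 171 and 165 but was detected on only 2 of the 6 mutant arrays. Nfix read 73.5 and 77.5, and Meis1, a partner of Hox proteins, 33.0 and 31.8.
Mecom (2 and 2.80), Hlf (1.94 and 6.62), Gata2 (2.20 and 5.30), Erg (6.95 and 5.26) and Gfi1 (2.79 and 1.95) were detected on neither array, although each is a known regulator of HSCs. Mecom, Gata2 and Gfi1 were also below the call on all 6 mutant arrays. The probes that stood for these 5 genes had 38.3 to 43.3% G+C. Among genes with a probe of over 40% G+C, 13 of 19 HSC surface genes (68.4%) and 14 of 23 HSC transcription factors (60.9%) were detected on both arrays, against 47.9% of all genes in that range. With at most 40% G+C the counts were 3 of 9 and 5 of 12, against 19.7% of all genes. Of the genes matched to RefSeq, 49.0% with over 40% G+C and 25.6% with at most 40% were detected on both arrays. For genes of tissues outside bone marrow, taken up below, the counts were 19 of 36 and 6 of 12. The HSC lists thus lay above the RefSeq share in both ranges, but below the genes of other tissues at 40% G+C or less.

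**Figure D3:**
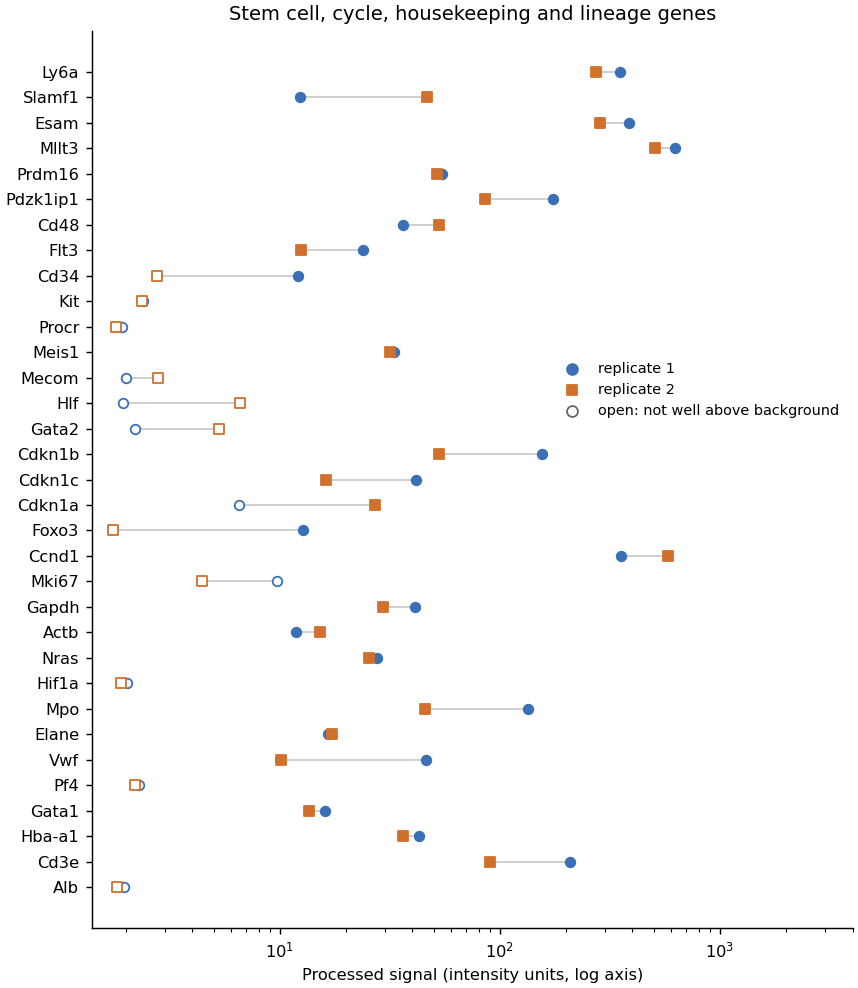
Processed signal (horizontal, log axis) on replicate 1 (circles) and replicate 2 (squares) of the stem cell markers and of genes named whatever their values; open symbols mark probes not well above background. Mllt3, Esam, Ly6a and Ccnd1 lie above 200 on both arrays, while Kit, Procr, Mecom, Pf4, Hif1a and Alb lie below 3 on both.

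Adhesion and niche genes were detected in 15 of 26 cases on both arrays (57.7%). Integrin Itgb7 read 213 and 113, the integrin adaptor Tln1 190 and 141, and Cd47, the signal that protects from phagocytosis, 122 and 200. The TGF-beta receptor Tgfbr1 read 186 and 1040. Icam1, Icam2 and Adgrg1 were detected on neither array. Cytokine receptors were detected in 11 of 25 cases on both arrays (44%), led by Lifr (320 and 380), the receptor of leukemia inhibitory factor, and Cxcr2 (290 and 253). Csf3r, Ifnar1 and Ifngr1, receptors of granulocyte colony-stimulating factor and of the interferons, were detected on neither.

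Lineage lists had shares both above and below the background, and within most of them defining markers were split between detected and undetected. The B cell list had 12 of 20 genes on both arrays (60%), and its signals summed to 1625 on replicate 1 and 542 on replicate 2. Among its brighter genes were Vpreb3 (175 and 169) and Vpreb1 (36.9 and 33.4) of the pre-B cell receptor. The defining markers Cd79a (2.95 and 5.74), a chain of the B cell receptor, and Pax5 were detected on neither array.
The list of T and NK cells had 9 of 22 genes on both arrays (40.9%), 6 of them bright, and summed to 3821 and 4907. Tbx21, the T-bet factor, read 2330 and 2010 from a probe that also holds 1 of the motifs, and Lat read 442 and 2110. Cd3e read 207 and 90.1, but of the other chains of the same complex Cd3g was detected on 1 array and Cd3d (1.84 and 1.68) on neither.
Lymphoid priming genes were detected on both arrays in 10 of 20 cases and summed to 17959.5 and 734. Ltb, lymphotoxin beta, made up most of the sum on replicate 1, with 17100 there and 13.7 on replicate 2. By the lower of the 2 percentiles the list was led by Dntt (249 and 190), the terminal transferase of lymphoid progenitors. Ighm (194.6 and 195.8), the heavy chain of IgM, came next. The transcription factors Bcl11b and Id2 and the kinase Lck were detected on neither array.

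Myeloid lists lay near or below the background. The neutrophil list had 10 of 24 genes on both arrays (41.7%), with Mpo (134 and 45.6), myeloperoxidase of granulocyte progenitors, and the oxidase subunit Ncf1 (636 and 433) among the 4 brightest. Elane, neutrophil elastase, read 16.5 and 17.3. The list summed to 1395 and 1017. The defining markers S100a8 and S100a9 were detected on neither array and Ltf on 1. The list of monocytes, macrophages and dendritic cells had 6 of 24 on both arrays (25%), none bright, and summed to 466 and 308. Its defining marker Csf1r read 61.3 and 28.1, whereas Cx3cr1 was detected on 1 array and Ccr2 (4.66 and 2.05) on neither.
The list of mast cells, basophils and eosinophils had the lowest share of all 42 lists, 4 of 19 (21.1%), with a summed signal of 449.98 and 401. The 4 were the proteases Mcpt4 (114 and 286) and Tpsb2 (74.9 and 18.2), the eosinophil granule gene Prg3 (78.5 and 31.3) and the chemokine receptor Ccr3 (41.9 and 21.8), and each was detected on all 6 mutant arrays. Of the markers set as defining, Cpa3 (2.16 and 1.86) and Ms4a2 were detected on neither array and Fcer1a on 1.

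Of the erythroid genes 8 of 24 (33.3%) were detected on both arrays, none was bright, and the list summed to 403 and 347. Hba-a1, alpha globin, read 42.8 and 36.1, and the anion exchanger Slc4a1 read 56.1 and 34.0. Alas2, the first enzyme of erythroid heme synthesis, read 2.36 and 2.93 and was detected on neither. Gata1, which drives erythroid and megakaryocytic genes, read 15.98 and 13.6. Hba-a1 and Slc4a1, the 2 defining erythroid markers with a value, were thus detected on both arrays and on all 6 mutant arrays, and Hbb-b1 had no value here.
Megakaryocyte and platelet genes were detected in 10 of 25 cases (40%) and summed to 723 and 1329.8. Gp1bb, a platelet glycoprotein chain, was the only bright one, with 206 and 412 from a probe of 80% G+C. Vwf, which marks platelet-biased HSCs, read 46.3 and 10.1, and Treml1 of platelet granules read 63.7 and 175. The 3 markers set as defining, Pf4 (2.29 and 2.20), Gp9 and Ppbp, were detected on neither array. Endothelial and stromal genes were detected in 13 of 26 cases (50%) and summed to 906 and 928, with the osteoblast factor Sp7 (181 and 157), Adipoq (181 and 95.7) of fat cells, the niche chemokine Cxcl12 (53.8 and 356) and the endothelial receptor Stab2 (56.8 and 27.8) among them. Adipoq and Stab2 were detected on all 6 mutant arrays, Sp7 and Cxcl12 on 4. Of the 3 endothelial markers set as defining, Cdh5 (2.38 and 2.37) and Kdr were detected on neither array and Flt1 on 1. In all these lists the part of RNA from other cells was not tested.

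Genes of tissues outside the bone marrow were detected as well. Of 48 such genes 25 were detected on both arrays (52.1%), 9 on 1 array and 14 on neither. Tnp2, a sperm nuclear protein, read 1130 and 410. The insulin genes Ins1 (223 and 101) and Ins2 (202 and 194) and the pancreatic elastase Cela1 (136 and 254) followed. Tnp2, Ins1 and Ins2 had probes with 58.3 to 60% G+C, and all 3 were detected on each of the 6 mutant arrays. Alb (albumin, 1.96 and 1.82), Amy2a5 and Apoa1 were detected on neither wild-type array. Detection of a single gene on both arrays therefore also occurred for genes that HSCs are not known to use, and the HSC shares of 57.1% and 54.3% stand beside this 52.1%. Among genes with 1 probe, 12 of 18 HSC surface genes (66.7%) and 8 of 18 HSC transcription factors (44.4%) were detected on both arrays. The share was 10 of 28 (35.7%) for genes of tissues outside bone marrow and 31.9% for all RefSeq genes with 1 probe. Differences between lists were not tested.

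**Figure D4:**
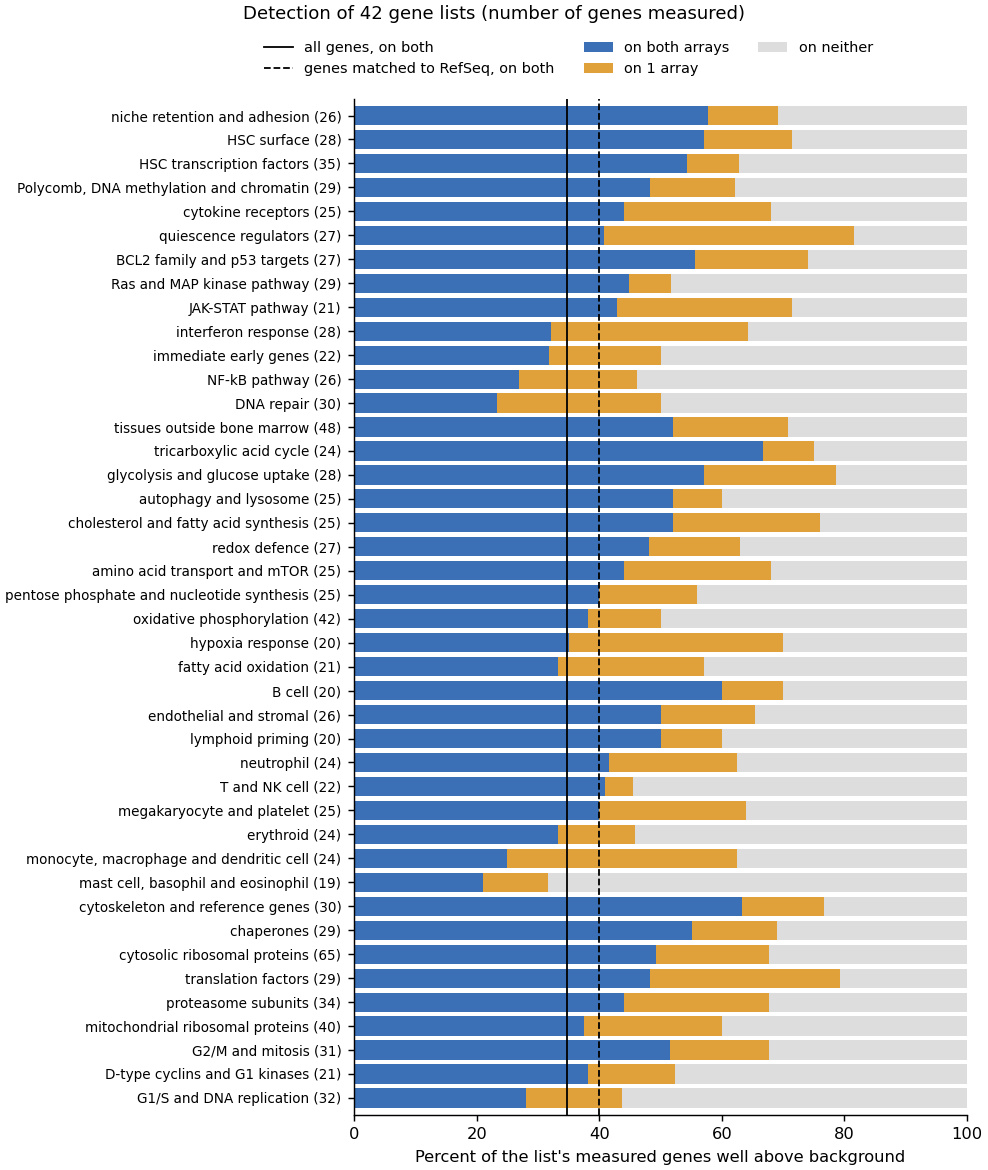
Share of each gene list (horizontal, percent of its measured genes, whose number is in brackets) well above background on both Nras+/+ arrays, on 1 array and on neither; the solid line marks all genes (34.7%) and the dashed line genes matched to RefSeq (39.99%). The tricarboxylic acid cycle list reaches furthest (66.7%) and the list of mast cells, basophils and eosinophils least (21.1%).

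Cell cycle genes were split. Of 32 genes of G1/S and DNA replication, 9 were detected on both arrays (28.1%) and 18 on neither, including Cdc6, Fen1 and Gins1. The helicase subunit Mcm4 read 2800 and 77.9. Of 31 genes of G2/M and mitosis, 16 were detected on both arrays (51.6%). Cenpf (287 and 225) of the kinetochore, the phosphatase Cdc25b (281 and 454), Birc5 (270 and 227) and Prc1 (206 and 247) led them.
Mki67, the usual marker of cycling cells, read 9.71 and 4.41 and was detected on neither wild-type array but on 3 of the 6 mutant arrays. The mitotic kinase Aurkb (2.36 and 2.38, from a probe with 23.3% G+C) and the checkpoint kinase Bub1 (1.91 and 1.77, 35% G+C) were at background. Among D-type cyclins and G1 kinases 8 of 21 were detected on both arrays (38.1%). Ccnd1 read 354 and 578, Ccnd2 123 and 45, and Cdk6, the G1 kinase that times exit from quiescence, 94.5 and 82.0. Ccne2 (from a probe with 45% G+C) and Cdk2 (21.7% G+C) were detected on neither. Of all probes with at most 30% G+C, as used for Aurkb and Cdk2, 6.55% were detected on both arrays.

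Quiescence regulators were detected on both arrays in 11 of 27 cases (40.7%) and on 1 array in another 11 (40.7%). Trp53, the p53 protein, read 906 and 655 from a probe with 60% G+C, and 8.80 and 2.62 from one with 50%. The cell cycle inhibitor Cdkn1b (p27) read 156 and 53.1, and Cdkn1c (p57), which holds HSCs in quiescence, 41.4 and 16.2. Cdkn1a (p21) read 6.49 and 27 and was detected on replicate 2 alone. Foxo3, which preserves the HSC pool, read 12.8 and 1.74 and was detected on replicate 1 alone. Foxo1 was detected on neither. The Polycomb and chromatin list had 14 of 29 on both arrays (48.3%), with Tet3 at 1370 and 294 and Hdac1 at 157 and 68.8, while Dnmt1 (6.57 and 3.68) was detected on neither.

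Glycolysis genes were detected in 16 of 28 cases on both arrays (57.1%). Aldolase Aldoa read 996 and 253, hexokinase Hk3 854 and 232, and the lactate transporter Slc16a3 267 and 84.1. Gapdh read 41.3 and 29.5. Hk2, Pdk1 and Eno2 were detected on neither array. The tricarboxylic acid cycle had the highest share of the 42 lists, 16 of 24 (66.7%), led by the pyruvate dehydrogenase subunit Pdha1 (379 and 72.2), yet only 1 of its genes was bright.
Oxidative phosphorylation had 16 of 42 (38.1%), led by Uqcrb (260 and 195) of complex III, with 21 on neither array. Fatty acid oxidation had 7 of 21 (33.3%). Its 9 genes on neither array included the dehydrogenases Acadl, Acadm and Acads. Pml, which promotes fatty acid oxidation in HSCs, read 5850 and 1060 from a probe with 1 of the 5 motifs.
In the hypoxia list 7 of 20 were detected on both arrays (35%). Cited2 (1100 and 297), which HSC maintenance requires, and Bnip3 (759 and 241), a mitophagy receptor, were bright, whereas Hif1a, the oxygen-sensitive factor itself, read 2.01 and 1.90 from a probe with 35% G+C and was detected on none of the 8 arrays. Redox defence had 13 of 27 (48.1%), with Prdx2 at 367 and 247 and catalase (Cat) at 1.86 and 1.70.

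The growth machinery, whose transcripts are among the most abundant in most cells, was not uniformly detected. Of 65 cytosolic ribosomal protein genes, 32 were detected on both arrays (49.2%), 12 on 1 and 21 on neither. Rps13 read 2280 and 593, whereas Rpl10a (1.85 and 1.72), Rpl11 (1.90 and 1.74) and Rpl17 (1.99 and 1.90) lay at background. Only 2 of the 12 ribosomal protein genes with a probe of at most 40% G+C were detected on both arrays, against 30 of 53 with over 40%. Of 30 cytoskeletal and reference genes 19 were detected on both arrays (63.3%). Cofilin (Cfl1) read 1630 and 386, while Actb, beta actin, read 11.9 and 15.2 from a probe that the files place on chromosome X. The other Actb probe, placed on chromosome 5, read 3.34 and 4.62 and was detected on neither array. Ferritin Fth1 was also detected on neither. Mitochondrial ribosomal proteins (15 of 40, 37.5%) and proteasome subunits (15 of 34, 44.1%) lay near the background.

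Signalling lists ranged from 23.3% to 55.6% on both arrays. In the Ras and MAP kinase list 13 of 29 were detected (44.8%). Nras read 27.7 and 25.3 from 1 of its 3 probes, which does not tell wild-type from mutant transcript, and Hras was detected on neither array. Etv4, a target of the pathway, read 301 and 215, and the inhibitor Spry1 120 and 125. The survival factor Bcl2 read 422 and 815 within a list of which 15 of 27 were detected (55.6%). Of the immediate early genes 7 of 22 were detected (31.8%). Klf2 read 2170 and 2440 from a probe with 78.3% G+C that holds at least 1 of the 5 motifs. Fos (1.97 and 1.97, from a probe with 35% G+C), Atf3 and Egr3 were detected on neither. The probes used for Nras and, in the lists above, for Gapdh, Ncf1, Cdc25b and Prc1 also hold at least 1 of the motifs. DNA repair had 7 of 30 (23.3%), with Brca1 and Brca2 on neither array.

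The arrays agreed in broad order and differed widely gene by gene. Spearman's rank correlation was 0.798 over all 27555 genes and 0.680 over the 9552 genes detected on both, where Pearson's correlation of log2 signals was 0.736. These are correlations across genes, which are not independent replicates. The other 27 pairs among the 8 arrays, most of them of unlike genotype, had 0.734 to 0.804 over all genes, and the wild-type pair ranked 3 among all 28, behind 1 pair of unlike and 1 of like genotype.
Repeat spots within an array were much closer. Of the probes with 10 spots each, 78 were detected on both arrays. Their single spots had a median SD of 0.18 on replicate 1 and 0.20 on replicate 2 (log2). The median SD between the 2 array means of the same probes, after scaling, was 0.50. One is a spread of 10 single spots and the other of 2 means, so they are not like measures. After scaling, 34.9% of the genes detected on both arrays differed by over 2-fold and 1060 (11.1%) by over 4-fold. Of these, 590 (6.18%) were brighter on replicate 1 and 470 (4.92%) on replicate 2. The spread grew with brightness: with the genes split into 5 equal groups by brightness, 0.837% of the dimmest and 22.7% of the brightest were over 4-fold apart, where for the dimmest genes a fall on 1 array would have ended detection and removed the gene from the count.

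The widest gaps spanned most of the range of signals on the arrays. H3c4, a histone H3 gene, read 99900 on replicate 1 and 20.4 on replicate 2, and H3c14, another, 95700 and 50.5. Ltb of the lymphoid priming list read 17100 and 13.7. In the other direction Ptprz1, a receptor phosphatase of glia, read 29.7 and 133000, the highest signal of replicate 2, and Crybb3, a lens crystallin, 115 and 22700.
Wide gaps were also found among genes detected on 1 array, whose dimmer value was not called above background. Rif1, a regulator of replication timing, read 99700 and 2.40, and the integrin subunit Itga4 35900 and 7.13. CYTB, mitochondrial cytochrome b, read 1.85 and 67000, and Golph3, a Golgi protein, 2.05 and 23000. Of the 277 genes in the top 1% of replicate 1, 45 (16.2%) were not detected on replicate 2, and of the 276 in the top 1% of replicate 2, 14 (5.07%) were not detected on replicate 1. A bright signal on 1 array was thus no assurance of detection on the other, although 151 genes were in the top 1% of both.

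The mutant arrays, which shared no sample with the wild-type pair, gave a further view of which wild-type calls recur. Of the 9552 genes detected on both wild-type arrays, 5626 (58.9%) were detected on all 6 mutant arrays and 93 (0.974%) on none. Of the 1734 bright genes, 1557 (89.8%) were detected on all 6. Of the 4152 genes detected on 1 wild-type array, 235 (5.66%) were detected on all 6 and 710 (17.1%) on none. Of the 13851 genes detected on neither, 9778 (70.6%) were on none. All arrays use the same probes, so this recurrence includes whatever belongs to the probe, such as its G+C content.

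**Figure D5:**
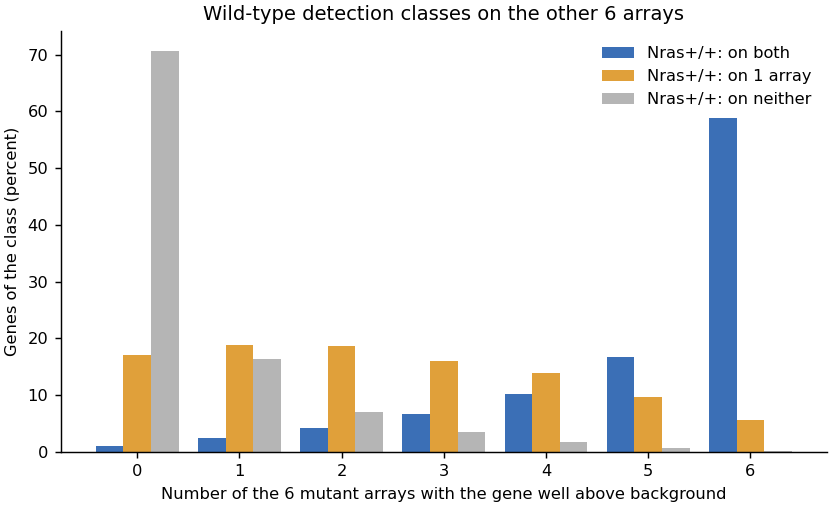
Share of genes (vertical, percent of the class) by the number of the 6 mutant arrays on which they were well above background (horizontal), for genes detected on both Nras+/+ arrays, on 1 and on neither. Genes on both peak at 6 arrays (58.9%), genes on neither at 0 arrays (70.6%), and genes on 1 array spread over the whole range.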

How the data were processed

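Total RNA of bone marrow HSCs was measured on 1-colour Agilent arrays, 1 sample per array; the labels gave the genotype and replicate number. Per the file headers, the authors read the scans with Agilent Feature Extraction 10.5.1.1. The deposited processed signal is an intensity from which background and spatial trend were removed array by array, with no scaling across arrays. The deposited mean and local background signals are uncorrected intensities. Per the file headers, further columns are flags of 0 or 1, here named score, for detection and for outlier spots. The deposited value table is a ratio of each processed signal to its array's median (largest relative deviation 1.2e-06), on a linear scale without centring per gene.

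Each array has 43379 spots that are no controls, for 41174 probes. Of these, 24375 were named by accession in a RefSeq table (GRCm38.p6), 6301 by symbol and 2419 by synonym, while 8079 kept the file's name. Outlier spots (144 and 125) were left out, log2 signals averaged per probe, and ranks taken per array. No spot was saturated. Of the spots, 36.0% and 30.8% were well above background. The median signal was 4.61 and 3.30, and the lowest well above background 9.21 and 8.33; values below that have no firm order. Differences between arrays were scaled to the 75th percentile of probes detected on both. With 2 arrays, whose number limits the precision, no test was made. Scripts were tested on simulated data. Python 3.11.15, pandas 2.3.3 and limma 3.58.1 (normexp, offset 50) were used.

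Genes, lists and alternatives were chosen with earlier results of these data known; the motifs, the stratum of 40% G+C and 3 alternatives were added after the values were seen. Named were the 6 markers, the 20 brightest genes, up to 4 brightest and 3 undetected members per list, the genes furthest apart and a fixed set that holds Kit, Cd34, Mki67 and Actb. Some genes that this rule named are not reported here, though counts include them.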

Additional observations from a re-analysis of the deposited data

Results flagged for a closer look

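Among the control probes for added E1A transcripts, which no comparison above uses, 2 had all spots well above background on both arrays. The highest negative control read 3.16 on replicate 1 and 3.27 on replicate 2. The probe (+)E1A_r60_a20 had a median over 32 spots of 183 on replicate 1 and 493 on replicate 2, and (+)E1A_r60_a22 of 922.5 and 845.5. Of the 10 such probes, the other 8 had medians between 1.775 and 57.95, some of them below the highest negative control. Whether these transcripts were added to the samples is not given in the sources used here.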

How the results depend on the processing

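No paired analysis was possible because no groups were compared. The number of genes detected on both arrays (9552 of 27555) changed by over 1.5 times in 3 settings. It was 16836 with the positive-and-significant flag and 15732 above the 99th percentile of negative controls. Counting only genes with 1 probe it was 5079, but of 18612 genes (27.3%, against 34.7% of all genes). Leaving out 1 array gave 10816 to 12440. Over all lists 506 of 1133 members were detected (44.7%). The same settings gave 824, 783 and, of the 574 members with 1 probe, 215 (37.5%). With 1 array left out, 571 to 648 were detected. Of the bright genes (1734), 816 were in the top 5%. Ranks among probes with the same number of G and C bases made 1779 genes bright, 1089 of them the same genes. The rank correlation of 0.680 was 0.798 over all genes, 0.550 over genes detected on at least 1 array, 0.672 with normexp, 0.669 for each probe by itself, 0.736 as Pearson's, 0.656 without probes holding 1 of the 5 motifs and 0.754 among probes of equal G+C. Genes over 4-fold apart (1060) fell to 428 with normexp, whose offset compresses low signals. Of 220 named genes detected on at least 1 array, 17 moved in percentile under normexp by more than the SD of the 2 arrays. Of 252 counts for single lists, 58 rose and 36 fell by over 1.5 times. Signals near background limit what can be said of genes detected on neither array.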
